A study of Mus musculus with 16 samples.

Results

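The 10 genes described here encode the heat shock machinery of the mouse cytosol, namely the Hsp70 chaperones Hspa1a, Hspa1b and Hspa8, the Hsp90 chaperones Hsp90aa1 and Hsp90ab1, the Hsp110 chaperone Hsph1, the J-domain partners Dnajb1 and Dnaja1, the small heat shock protein Hspb1 and the transcription factor Hsf1. They were chosen by name as members of these families, with expression changes after CIX in these same samples already known, so that the number of them that changed is a description of the set and was not tested. All 10 symbols were found in the count table, where they are 10 of the 33072 genes. RNA had been sequenced from 4T1 and 67NR cells, a metastatic and a non-metastatic line that both come from a single spontaneous mammary tumor of a BALB/c mouse. Each line had received vehicle (DMSO) or CIX, a synthetic omega-3 fatty acid derivative that inhibits the phospholipase cPLA2α, at 15 µM for 24 h in medium with serum. There were 4 biological replicates in each of the 4 groups, vehicle treated 4T1, CIX treated 4T1, vehicle treated 67NR and CIX treated 67NR, and 16 samples in all. The numbers used below to name samples are those of the labels and run from 1 to 16 without being shared between groups. No heat stress was part of the design, and each line stands for 1 model only.

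Hsp70 proteins bind unfolded stretches of other proteins and release them when their bound ADP is exchanged for ATP. J-domain proteins such as Dnajb1 and Dnaja1 bring them their substrates and start ATP hydrolysis, Hsp110 proteins such as Hsph1 exchange the nucleotide, and Hsp90 takes over late folding steps of kinases and receptors. Hspa8, Hsp90ab1 and Dnaja1 are made in most unstressed cells, whereas Hspa1a, Hspa1b, Dnajb1 and Hspb1 are known for strong induction by heat. The inducible genes are driven by Hsf1, which binds heat shock elements, inverted repeats of the unit GAA, and which Hsp70 and Hsp90 hold in check.

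The sequences that bear on these genes are the heat shock elements before them and the stretches they share with copies elsewhere in the genome. RefSeq promoter windows of GRCm38.p6, from 250 bases before to 50 bases after a start site, were at hand for 6 of the 10 genes. An inverted pair of units, GAANNTTC or TTCNNGAA, both of which read the same on either strand, occurred in the windows of 5 of them, Hspa1a, Hspa1b, Dnaja1, Hsph1 and Hspb1, and in 15.1% of all 32851 windows. The count of 5 is of genes with a pair in any of their windows, 10 windows for the 6 genes, whereas the 15.1% is a share of single windows. The windows of Dnajb1 did not hold these letters. The stretches below are written 5′ to 3′ on the strand of the gene, with the inverted pairs in capitals, and show where the letters of the element occur in the 5 genes. They lie at chr17:34972157-34972286 (-) for Hspa1a, chr17:34959239-34959368 (-) for Hspa1b, chr4:40722333-40722362 (+) for Dnaja1, chr5:149636351-149636380 (-) for Hsph1 and chr5:135887784-135887843 (+) for Hspb1.
Hspa1a: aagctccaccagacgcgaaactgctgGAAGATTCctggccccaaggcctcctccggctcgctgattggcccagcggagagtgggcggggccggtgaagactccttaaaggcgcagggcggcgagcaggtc
Hspa1b: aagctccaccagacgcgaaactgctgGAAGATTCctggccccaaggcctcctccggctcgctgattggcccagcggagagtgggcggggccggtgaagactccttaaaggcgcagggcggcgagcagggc
Dnaja1: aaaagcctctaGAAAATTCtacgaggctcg
Hsph1: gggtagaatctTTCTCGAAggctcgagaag
Hspb1: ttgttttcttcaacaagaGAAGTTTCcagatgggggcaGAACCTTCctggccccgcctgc

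Counted from the start site, the pairs of Hspa1a and Hspa1b began at -104, that of Dnaja1 at -124, and those of Hspb1 at -117 and -97. Dnaja1 held its pair in the first of 3 windows, and the stretches of Dnaja1 and Hsph1 overlap the span that GENCODE gives to the gene itself. The promoter windows of Hspa1a and Hspa1b differed at 4 of 300 bases, and the stretches printed differed at 1 base. Hsph1 also held a row of units, TTCTGGAAAGTTC, just after its start site. Such a row (GAANNTTCNNGAA or TTCNNGAANNTTC) occurred in 0.603% of all windows.

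Reads of Hspa1a and Hspa1b, neighbours on chromosome 17 (34969190 to 34972156 and 34956436 to 34959238, minus strand, each a single exon), can be told apart only in part. Their coding sequences differed at 7 of 1926 aligned bases, and 52.7% of the 75-base words of the Hspa1a transcript also occurred in Hspa1b. Hspa8 (chromosome 9, 40800984 to 40810087, plus strand) has a processed copy without introns, Gm15459, that differed from its coding sequence at 5 of 1941 bases, and 64.3% of the 75-base words of Hspa8 occurred in it. The stretches below are those of 60 coding bases in which each pair differed most, with the differing bases in capitals, on the coding strand of GRCm38 (chr17:34970510-34970569, chr17:34957592-34957651, chr9:40801977-40802036 and chr5:5783442-5783501).
Hspa1a: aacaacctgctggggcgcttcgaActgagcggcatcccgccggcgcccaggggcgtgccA
Hspa1b: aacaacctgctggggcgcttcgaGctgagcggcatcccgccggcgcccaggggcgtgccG
Hspa8: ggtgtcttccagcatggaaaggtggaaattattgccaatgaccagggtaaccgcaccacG
Gm15459: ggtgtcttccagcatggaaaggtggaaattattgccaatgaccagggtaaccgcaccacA

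Of the other members, Hsp90aa1 shared 51.4% of its 31-base words with other genes, Hspb1 52.3%, Dnaja1 13.4% and Hsp90ab1 13.2%. For Dnajb1, Hsf1 and Hsph1 the share was at most 0.412%. The values of Hspa1a, Hspa1b and Hspa8 are therefore also given below as sums with their copies.

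The total estimated count was 21715700 to 29450629 per sample, and levels are given as CPM, the counts divided by library size on a TMM scale common to all samples. In 4T1 cells the totals of the CIX samples (24046705 to 29450629) lay above those of the vehicle samples (22483670 to 23875921), and the part of depth in the results was not tested. In bulk samples, fewer cells of a kind and less RNA per cell cannot be told apart. Of the 10 genes, 8 passed the filter of the study (a TPM below 1 in no more than 3 samples) in every comparison, and Hspa1a and Hspb1 did not. The test was limma-voom over all genes that passed, and a change was called where the Benjamini-Hochberg adjusted p was below 0.001. The study named the same test and threshold but reported far more genes for CIX in the metastatic line than were called here. It does not state which samples its model held. With CIX in 4T1 the fit used here, over the 8 samples of that line, called 1084 genes. A common fit of all 16 samples called 2688, with more of the members among them. Whether a member not called here passed in the study was not tested.

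Per length, Hsp90ab1, Hspa8 and Hsp90aa1 had the highest levels of the 10 genes in both lines. In vehicle treated 4T1 cells the mean level per kb of the longest coding transcript was 1317 CPM for Hsp90ab1, 1225 for Hspa8, 633 for Hsp90aa1 and 147 for Hsph1, and it was 47.2 for Hspa1b, 29 for Dnaja1, 19.9 for Hsf1 and 16.7 for Dnajb1. In vehicle treated 67NR cells Hsp90ab1 (1701), Hspa8 (742) and Hsp90aa1 (488) again came first. The order below these 3 depended on the length used. Per kb of the longest coding transcript Hspa1b (98.7 CPM) stood above Hsph1 (60.4) and Dnaja1 (34.3) in vehicle treated 67NR, and per kb of the mean transcript length, tried after seeing the data, it stood below both (118 and 106 CPM). These values leave out the reads assigned to copies. With its copies Hspa8 had a mean of 7073 CPM in vehicle treated 4T1 and 4349 CPM in vehicle treated 67NR. Alone it had 2932 and 1776 CPM, so that the order of Hspa8 and Hsp90ab1 depends on those reads. The levels per kb also depend on how tximport scaled the counts by length, which the sources used here do not state.

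Hspb1, whose product Hsp25 caps unfolding proteins in many epithelial and muscle cells, was not detected in either line. It had 0 to 3 counts in all 16 samples, no more than the 3 counts that a count of 0 allows (0.102 to 0.138 CPM), and its pseudogene Hsp25-ps1 had 0 to 2 counts. Its promoter holds the 2 pairs printed above.

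**Figure D1:**
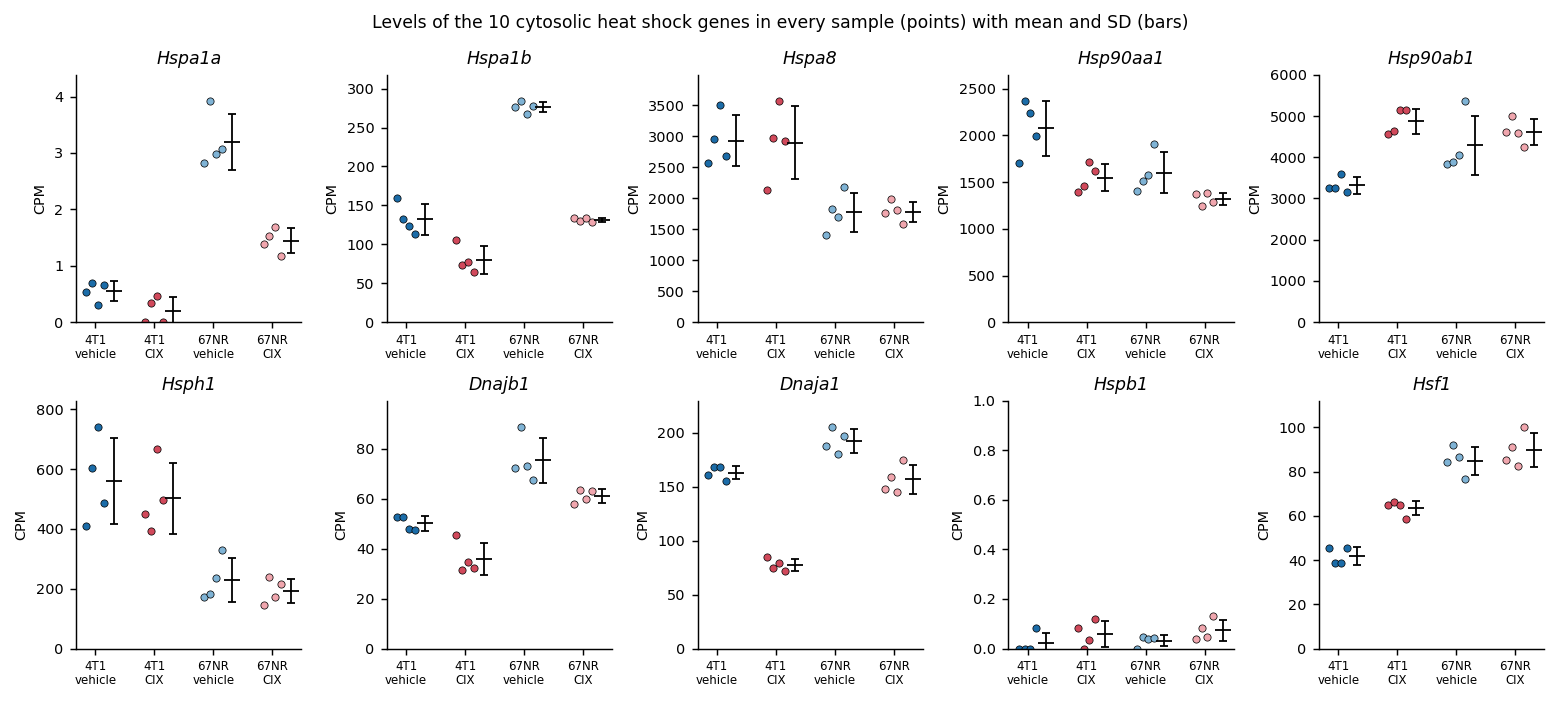
CPM (vertical axes, linear, each with its own range from 0) of the 10 genes in the 4 groups, with 1 point per sample and the mean and SD of 4 samples as a bar. Hspb1 lies near 0 throughout, Hspa1b and Dnaja1 lie lower with CIX than with vehicle in both lines, and Hsp90ab1 and Hsf1 lie higher with CIX in 4T1.

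CIX treated 4T1 cells were compared with vehicle treated 4T1 cells to ask how the inhibitor changes expression in the metastatic line. Dnaja1 fell and Hsp90ab1 rose, and the other tested members did not pass the threshold. Over all 11676 genes tested, 5.33% were called higher and 3.96% lower, beside 1 higher and 1 lower of the 8 members. DESeq2 called 4 of the 8 members, adding Hspa1b and Hsf1, beside 26.6% of all genes, and edgeR called 2, beside 8.8%. The median log2 fold change of the 8 members was -0.3, against -0.01 for all genes tested.

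Dnaja1, which carries substrates and mitochondrial precursors to Hsp70, had 161, 168, 168 and 155 CPM in vehicle samples 3, 7, 11 and 15. With CIX it had 85.1, 74.9, 78.9 and 71.5 CPM in samples 4, 8, 12 and 16. Every CIX sample lay below every vehicle sample, with means of 77.6 ± 5.84 CPM and 163 ± 6.28 CPM (± SD over 4 samples). On the log2 scale this was -1.09 ± 0.09 (± SE, as for all log2 fold changes here; adjusted p = 6.71e-05 by limma-voom), which is 0.47 of the vehicle level. It was called without any 1 of the 8 samples and was -1.07 when the counts of its pseudogenes Gm15542 and Gm7816 were added.

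Hsp90ab1, the constitutive Hsp90, had 3258, 3258, 3603 and 3151 CPM in vehicle samples 3, 7, 11 and 15. With CIX it had 4571, 4635, 5135 and 5141 CPM in samples 4, 8, 12 and 16. Again the groups did not overlap, and the log2 fold change was 0.54 ± 0.07 (adjusted p = 0.000423). The call was lost, with adjusted p of 0.00115 to 0.00252, when any one of vehicle samples 3, 7 and 15 or of CIX samples 8, 12 and 16 was left out, and over all 8 such fits the log2 fold change lay between 0.5 and 0.58.

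Its stress-inducible partner Hsp90aa1 moved the other way without being called. It had 1701, 2366, 2240 and 1997 CPM with vehicle and 1396, 1461, 1713 and 1620 CPM with CIX, and the groups overlapped by 1 vehicle sample, number 3. The log2 fold change was -0.43 ± 0.11 (adjusted p = 0.0127). Adding its pseudogenes, which hold 8 to 206 counts, left it at -0.43.

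Among the inducible members, Hspa1b had 159, 133, 124 and 113 CPM in vehicle samples and 106, 73.6, 77.7 and 63.9 CPM in CIX samples of 4T1. The groups did not overlap, yet the spread was wide, and the log2 fold change of -0.75 ± 0.17 missed the threshold (adjusted p = 0.00585). Dnajb1, which starts the Hsp70 cycle on aggregates, had 52.5, 52.7, 47.7 and 47.5 CPM with vehicle and 45.5, 31.6, 34.6 and 32.4 CPM with CIX. It too did not overlap and missed the threshold, at -0.51 ± 0.13 (adjusted p = 0.0127).

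Hsf1 itself, the factor above these genes, had 45.4, 38.5, 38.5 and 45.3 CPM with vehicle and 64.7, 66.1, 64.7 and 58.6 CPM with CIX. All CIX samples lay above all vehicle samples, opposite in direction to Hspa1b and Dnajb1. Its log2 fold change of 0.59 ± 0.1 had an adjusted p of 0.002 and was not called. In all, the groups of 5 of the 8 members did not overlap, beside 39.9% of all genes tested.

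Hspa8 and Hsph1 showed no difference beyond the spread between samples in 4T1. Hspa8 had 2575, 2961, 3501 and 2690 CPM with vehicle and 2132, 2968, 3571 and 2924 CPM with CIX, and the 95% confidence interval of its log2 fold change ran from -0.39 to 0.3. Hsph1 had 411, 603, 740 and 487 CPM with vehicle and 450, 393, 669 and 498 CPM with CIX, with an interval from -0.62 to 0.29. Differences of the sizes within these intervals remain possible with 4 samples a group.

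**Figure D2:**
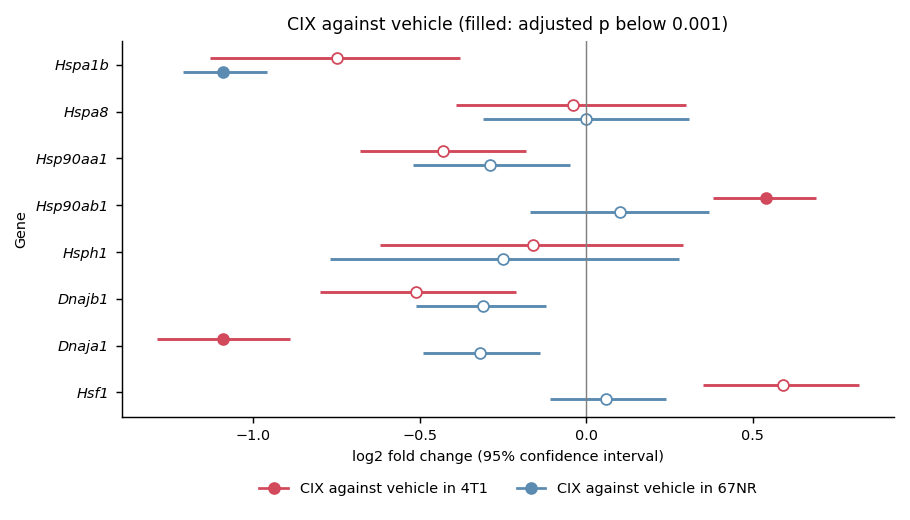
Log2 fold change of CIX against vehicle (horizontal axis) with its 95% confidence interval (lines) for the 8 members tested, in 4T1 and in 67NR, each over 8 samples. Filled points passed the adjusted p threshold, which are Dnaja1 (-1.09) and Hsp90ab1 (0.54) in 4T1 and Hspa1b (-1.09) in 67NR.

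The same comparison in 67NR cells gave far fewer calls in all, with 0.181% of 11583 genes higher and 0.207% lower. Of the 8 members none was higher and 1 was lower, Hspa1b, and DESeq2 and edgeR each also called 1 member, beside 9.02% and 0.397% of all genes. Hspa1b had the lowest p-value of all 11583 genes. The median log2 fold change of the members was -0.27, against -0.01 for all genes.

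Hspa1b had 277, 284, 268 and 278 CPM in vehicle samples 1, 5, 9 and 13. With CIX it had 134, 130, 134 and 129 CPM in samples 2, 6, 10 and 14. Replicates lay within a coefficient of variation of 2.27% and 2.03%, and the level with CIX was 0.471 of that with vehicle. The log2 fold change was -1.09 ± 0.06 (adjusted p = 0.000126). Without vehicle sample 5 or 9, or without CIX sample 6, 10 or 14, it stayed between -1.1 and -1.07 and lost the call, with adjusted p of 0.00121 to 0.00194. In each of these fits 0 of all genes tested were called. Summed with Hspa1a and the testis-enriched relative Hspa1l, with which it shares 11.1% of its words, Hspa1b gave -1.06 ± 0.05 (adjusted p = 0.000115).

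Hspa1a was assigned far fewer reads than Hspa1b, 0% to 1.36% of the sum of both over the 16 samples. In 67NR it had 71, 88, 75 and 72 counts with vehicle (3.2 ± 0.495 CPM) and 36, 37, 37 and 27 counts with CIX (1.45 ± 0.217 CPM). The groups did not overlap, and the ratio of the means was 0.453 (two-sided exact permutation test, p = 0.0286, the smallest that 4 against 4 allows, and 0.0571 adjusted over the 2 lines). In 4T1 it had 13, 16, 7 and 16 counts with vehicle and 0, 8, 13 and 0 with CIX, and the groups overlapped (exact permutation p = 0.0857). With so many shared words the split of reads between Hspa1a and Hspa1b is uncertain. Their sum with Hspa1l gave -0.78 ± 0.16 with CIX in 4T1 (adjusted p = 0.0041), 0.28 ± 0.17 for the difference between the lines in response (adjusted p = 0.221) and -1.07 ± 0.1 between the vehicle treated lines (adjusted p = 1.31e-05), with the same side of the threshold as Hspa1b alone each time.

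Dnaja1, Dnajb1 and Hsp90aa1 lay lower in all CIX samples than in all vehicle samples of 67NR without passing the threshold. Dnaja1 had 188, 205, 180 and 197 CPM with vehicle and 148, 159, 145 and 175 CPM with CIX (-0.32 ± 0.08, adjusted p = 0.0234). Dnajb1 had 72.4, 88.6, 73 and 67.4 CPM with vehicle and 57.9, 63.6, 59.9 and 63.2 CPM with CIX (-0.31 ± 0.09, adjusted p = 0.0364). Hsp90aa1 had 1402, 1510, 1578 and 1909 CPM with vehicle and 1369, 1244, 1380 and 1285 CPM with CIX (-0.29 ± 0.1, adjusted p = 0.093). With Hspa1b these made 4 of 8 members whose groups did not overlap, beside 23.3% of all genes.

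The remaining members overlapped between the 67NR groups. Hsp90ab1 had 3839, 3875, 4066 and 5362 CPM with vehicle and 4620, 5005, 4589 and 4248 CPM with CIX, and vehicle sample 13 lay above every other 67NR sample. Its log2 fold change was 0.1, with an interval from -0.17 to 0.37, and 0.23 without that sample (adjusted p = 0.0402). Hsf1 had 76.6 to 92 CPM with vehicle and 82.7 to 100 CPM with CIX (0.06, interval from -0.11 to 0.24). Hspa8 had 1411 to 2178 CPM with vehicle and 1592 to 1986 CPM with CIX (0, interval from -0.31 to 0.31), and Hsph1 had 172 to 330 and 146 to 238 CPM (-0.25, interval from -0.77 to 0.28).

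Whether the response to CIX differed between the lines was tested with an interaction term over all 16 samples. Of 12629 genes, 4.81% had a higher and 3.06% a lower response in 4T1, and of the 8 members this was so for Dnaja1 alone, which fell further in 4T1. The difference in its log2 fold change was -0.77 ± 0.11 (adjusted p = 0.000107), and it kept the call whichever of the 16 samples was left out. Hsf1, with a difference of 0.52 ± 0.13 (adjusted p = 0.00584), and Hsp90ab1, with 0.43 ± 0.13 (adjusted p = 0.0214), lay on the side of a higher response in 4T1 and were not called. For Hspa1b, called in 67NR and not in 4T1, the difference was 0.33 with an interval from -0.03 to 0.7 (adjusted p = 0.169), so that a difference between the lines was not shown. For Dnajb1, Hsp90aa1, Hspa8 and Hsph1 the differences were -0.2, -0.15, -0.05 and 0.08, with intervals that all spanned 0.

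The vehicle treated lines were then compared with each other. Of 11057 genes, 20.4% were higher and 19.6% lower in 4T1, and 61.5% did not overlap between the lines. Among the 8 members none was called higher and 3 were called lower in 4T1, Hspa1b, Hsf1 and Dnajb1. Of the 8, 7 did not overlap, which for Dnaja1 held only without the reads of its pseudogenes. DESeq2 called 5 members in either direction, beside 52.1% of all genes.

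Hspa1b at 113 to 159 CPM in 4T1 and 268 to 284 CPM in 67NR lay at 0.472 of the 67NR level (log2 fold change -1.08 ± 0.11, adjusted p = 1.83e-05). Its level in vehicle treated 4T1 overlapped that in CIX treated 67NR, 129 to 134 CPM. Hsf1 lay at 0.49 of the 67NR level, with 38.5 to 45.4 against 76.6 to 92 CPM (-1.03 ± 0.09, adjusted p = 1.26e-05), and with CIX it reached 58.6 to 66.1 CPM in 4T1, still below every 67NR sample. Dnajb1 had 47.5 to 52.7 CPM in 4T1 and 67.4 to 88.6 CPM in 67NR (-0.59 ± 0.1, adjusted p = 0.000537), and its groups fell in the order vehicle treated 67NR, CIX treated 67NR, vehicle treated 4T1 and CIX treated 4T1 with no overlap between neighbours. The call of Dnajb1 was lost, with adjusted p of 0.00167 to 0.0028, without 67NR sample 1, 5 or 9 or without 4T1 sample 7, 11 or 15. It was also lost in 3 of 12 other settings, without scaling (adjusted p = 0.00122) and on both TPM scales (adjusted p = 0.00517 and 0.00509).

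Hsph1 and Hspa8 went the other way. Hsph1 had 411 to 740 CPM in 4T1 and 172 to 330 CPM in 67NR, with no overlap, and its log2 fold change of 1.29 ± 0.24 had an adjusted p of 0.00114. Hspa8 had 2575 to 3501 against 1411 to 2178 CPM (0.72 ± 0.15, adjusted p = 0.00196). Both were just short of the threshold, and Hsph1 passed it in 9 and Hspa8 in 7 of 12 other settings, DESeq2 among them. Both also passed it without 67NR sample 13, at 1.51 (adjusted p = 0.000305) and 0.85 (adjusted p = 0.000536). That sample held the highest level of Hspa8, Hsp90aa1, Hsp90ab1 and Hsph1 in its group. In 3 of the 4 groups Hspa8, Hsp90ab1 and Hsph1 had their highest level in one and the same sample. These genes were singled out from the members, and no share over other genes was formed. The other members mostly had their highest level in other samples of these groups.

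The 2 Hsp90 genes and Dnaja1 differed less between the lines. Hsp90aa1 was at 1701 to 2366 CPM in 4T1 and 1402 to 1909 CPM in 67NR, which overlapped (0.36, adjusted p = 0.0332). Hsp90ab1 lay lower in 4T1 (3151 to 3603 against 3839 to 5362 CPM, -0.37, adjusted p = 0.0237), and with CIX the 4T1 samples overlapped both 67NR groups. Dnaja1 lay lower in 4T1 (155 to 168 against 180 to 205 CPM, -0.25, adjusted p = 0.0139), and the order of its groups was vehicle treated 67NR, vehicle treated 4T1, CIX treated 67NR and CIX treated 4T1, where the middle pair overlapped. With the counts of its pseudogenes added, the vehicle treated lines overlapped, at 185 to 207 against 204 to 238 CPM. The log2 fold change was then -0.17 (adjusted p = 0.0772 by limma-voom).

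**Figure D3:**
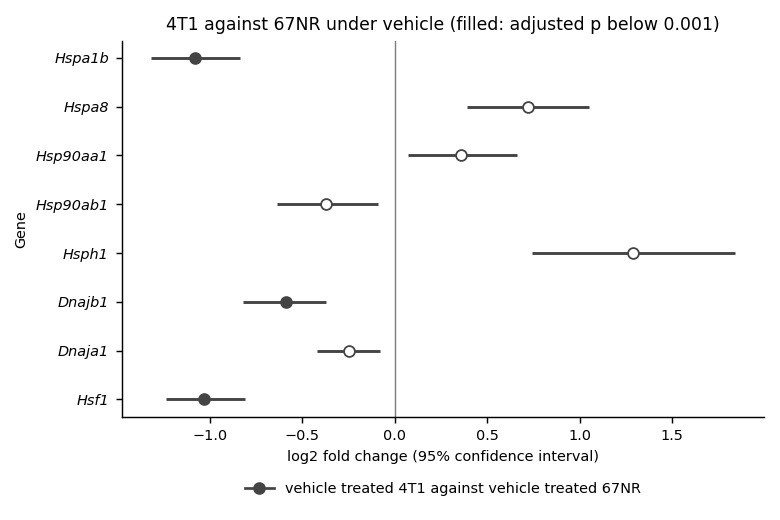
Log2 fold change of vehicle treated 4T1 against vehicle treated 67NR cells (horizontal axis) with its 95% confidence interval (lines) for the 8 members tested, over 8 samples. Filled points (Hspa1b -1.08, Dnajb1 -0.59 and Hsf1 -1.03) passed the threshold and lie left of 0, while Hsph1 (1.29) and Hspa8 (0.72) lie right of it.

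For Hspa8 the deposited counts need their copies beside them. Hspa8 itself held 36.1% to 48.1% of the reads of the family over the 16 samples, and the processed pseudogene Gm15459 held 44.8% to 55.2%, more reads than Hspa8 in 14 of the 16 samples. Summed with all copies, Hspa8 reads came to 6280, 7491, 7674 and 6848 CPM in vehicle treated 4T1 and 5330, 7785, 9251 and 7269 CPM in CIX treated 4T1. In 67NR the sums were 3911, 4643, 4312 and 4528 CPM with vehicle and 4455, 5026, 4592 and 4318 CPM with CIX. The sum did not pass the test with CIX in either line (log2 fold changes of 0.03 ± 0.15 and 0.06 ± 0.08, adjusted p of 0.889 and 0.621). Between the vehicle treated lines the sum was higher in 4T1 by 0.69 ± 0.09 on the log2 scale, and this passed the threshold (adjusted p = 8.81e-05). Taken one by one, Gm15459 and Gm8355 were also called higher in 4T1, by 0.63 and 0.92.

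**Figure D4:**
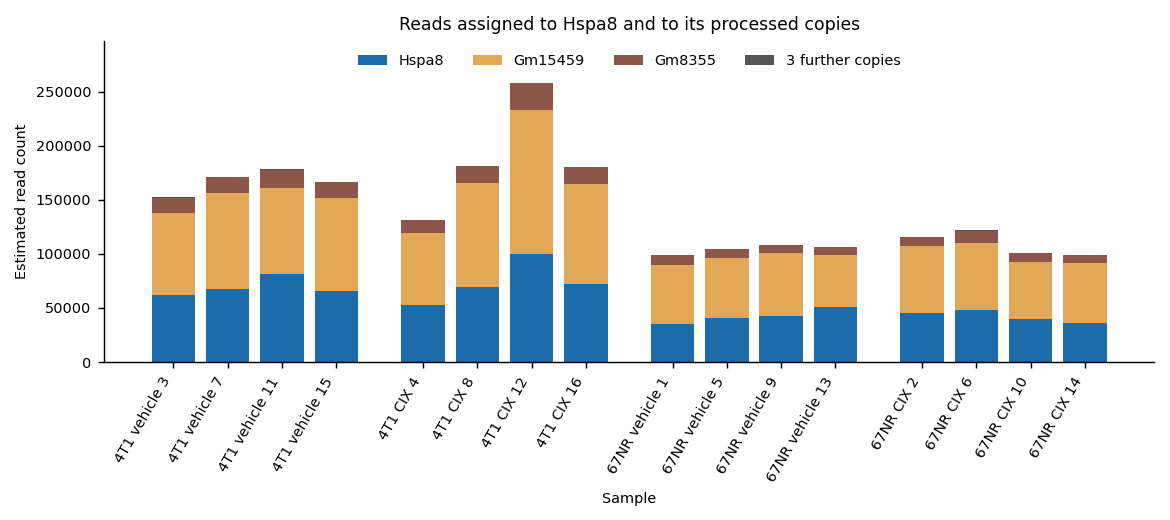
Estimated read counts (vertical axis, linear from 0) assigned to Hspa8 and to its processed copies in each of the 16 samples, stacked to the sum of the family. Gm15459 takes 44.8% to 55.2% of the reads in every sample, and the sums of the 4T1 samples (131679 to 258289) lie above those of the 67NR samples (98628 to 121609).

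The rest of the chaperone network was described from lists of partner genes. In 4T1 with CIX, none of the 5 tested other Hsp70 and Hsp110 genes passed, nor any of the 10 nucleotide exchange and hand-over factors of Hsp70, the 2 other heat shock factors and binding proteins or the 7 subunits of the CCT chaperonin, a ring that folds actin and tubulin. Their medians were -0.33, -0.1, -0.27 and 0.23 against -0.01 for all genes. At an unadjusted p below 0.05 there were 2, 4, 1 and 4 genes of these lists, beside 51.1% of all genes, while DESeq2 called 2, 0, 0 and 1 genes, beside 26.6%, and edgeR called none. Hsf2, a second heat shock factor, had 28.3 ± 4.26 CPM with vehicle and 21.4 ± 4.37 CPM with CIX (-0.43, adjusted p = 0.076).

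Small heat shock proteins other than Hspb1 held 2 of the genes that rose in 4T1. Of 8 listed, 4 were tested in 4T1 and 2 were called, both higher, beside 5.33% of all genes called higher. Hspb2, a muscle-enriched family member, went from 2.27 to 2.84 CPM with vehicle to 10.4 to 13.2 CPM with CIX (2.15 ± 0.17, adjusted p = 6.55e-05). Hspb8, which works with the co-chaperone Bag3 in removing misfolded proteins, went from 32.6 to 41.4 CPM to 92.6 to 105 CPM (1.4 ± 0.1, adjusted p = 4.55e-05), while Bag3 was at -0.36 (adjusted p = 0.0343). Under vehicle Hspb8 was lower in 4T1 than in 67NR (-2.2 ± 0.1, adjusted p = 2.18e-07), where it had 150 to 176 CPM.

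In other lists single genes passed in 4T1, and with 5.33% of all genes called higher and 3.96% lower, 1 call in a list of this size is no more than a description of that gene. Of 11 J-domain partners 1 was lower, Dnajc5, a cysteine string protein of secretory vesicles, at 139 to 166 CPM with vehicle and 94.6 to 105 CPM with CIX (-0.65 ± 0.09, adjusted p = 0.000665). Of 8 relatives in the mitochondrion and endoplasmic reticulum 1 was higher, Trap1, the mitochondrial Hsp90, which went from 96.5 to 113 CPM to 206 to 270 CPM (1.19 ± 0.11, adjusted p = 9.86e-05). Of 16 Hsp90 co-chaperones 1 was higher, Aarsd1, from 5.51 to 9.05 CPM to 35.2 to 46.2 CPM (2.44 ± 0.18, adjusted p = 4.47e-05). The value of Aarsd1 is uncertain in part, since 41.1% of its words also occur in other genes, mainly in the overlapping gene Gm27029. In 4T1, Gm27029 had 14 to 57 counts with vehicle and 107 to 113 with CIX. Aarsd1 had 126 to 220 and 854 to 1141 counts in the same samples.

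In 67NR with CIX, 1 gene of all these lists passed, Dnajc9, a J-domain protein of histone handling, which fell from 55.3 to 63.1 CPM to 27.5 to 35.8 CPM (-0.94 ± 0.09, adjusted p = 0.000787). Without vehicle sample 5 or 9, or without CIX sample 6, 10 or 14, no gene at all was called. None of the 16 Hsp90 co-chaperones, 6 small heat shock proteins, 5 Hsp70 and Hsp110 genes, 10 exchange factors, 2 heat shock factors, 7 CCT subunits or 8 organelle relatives passed with all samples. Of these, 7, 3, 3, 2, 0, 2 and 2 had an unadjusted p below 0.05, beside 32.8% of all genes. DESeq2 called 1, 1, 1, 0, 0, 2 and 0 of them, beside 9.02% of all genes, and edgeR called none. Hspb8 had 162 to 199 CPM with CIX in 67NR (0.09, adjusted p = 0.506). Hspb2 had 2.46 to 3.89 CPM with vehicle and 3.98 to 5.84 CPM with CIX in 67NR, with no overlap, and did not pass the threshold (0.72 ± 0.2, adjusted p = 0.0396).

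The interaction term called Hspb8 (1.31 ± 0.13, adjusted p = 5.56e-06), Hspb2 (1.43 ± 0.27, adjusted p = 0.000951), Trap1 (1.1 ± 0.16, adjusted p = 0.000108) and Aarsd1 (2.2 ± 0.22, adjusted p = 5.92e-06) as responding more strongly upward in 4T1. It called Dnajc5 (-0.7 ± 0.11, adjusted p = 0.000216) and Cryab, the alpha B-crystallin, in the other direction. Cryab lay lower with CIX in 4T1 (25.5 ± 4.07 against 34.5 ± 2.36 CPM) and higher with CIX in 67NR (62 ± 1.44 against 48.3 ± 1.61 CPM), neither of which was called, and the difference was -0.81 ± 0.13 (adjusted p = 0.000383).

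**Figure D5:**
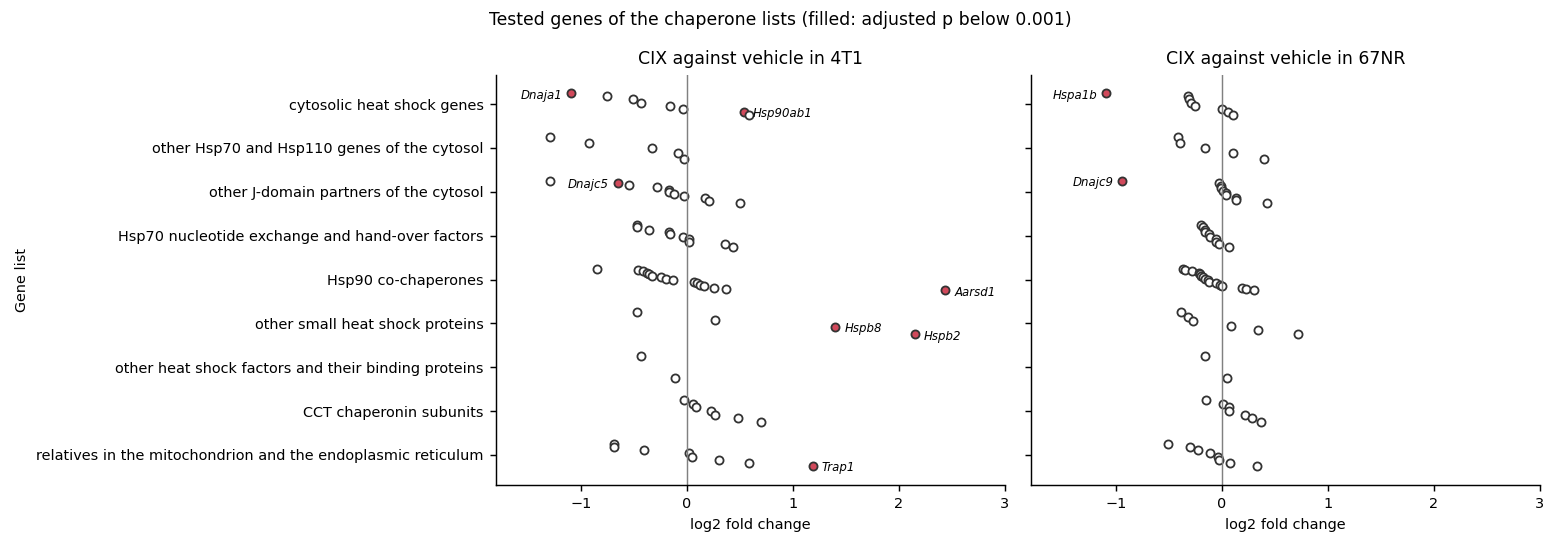
Log2 fold change of CIX against vehicle (horizontal axes) for every tested gene of the chaperone lists (rows), in 4T1 on the left and 67NR on the right, with genes past the threshold filled and named. The largest values are those of Aarsd1 (2.44), Hspb2 (2.15) and Hspb8 (1.4) in 4T1.

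Marker genes were read beside these results. Summed epithelial markers had 3400 to 3894 CPM in vehicle treated 4T1, 4011 to 4291 CPM with CIX and 1.32 to 6.23 CPM over the 67NR samples, with 5 of the 7 above 3 counts in both 67NR groups, and Krt5 had no more than 3 counts in any sample. Summed mesenchymal markers had 2490 to 3306 CPM in vehicle treated 4T1, 4315 to 5217 CPM with CIX, 5852 to 6772 CPM in vehicle treated 67NR and 8950 to 9822 CPM with CIX. In 67NR none of the 4 tested passed the threshold, with log2 fold changes of 0.58 for Vim, 0.37 for Fn1, -0.73 for Col1a1 and -0.76 for Pdgfrb and a median of -0.18. Vim was called higher with CIX in 4T1 (1.24). Of the 5 epithelial markers tested there Epcam was called lower (-0.78), and the others, at 0.45 for Krt7, 0.43 for Krt8, 0.14 for Krt18 and -0.29 for Cdh1, did not pass the threshold. Of 6 immune markers 3 exceeded 3 counts in 4T1, and their sum was 52.5 to 89 CPM with vehicle and 132 to 199 CPM with CIX. In 67NR it was 7.86 to 12.1 CPM and 35.1 to 40.5 CPM. The immune marker called was Cd68, a lysosomal protein (1.25 in 4T1 and 2.08 in 67NR, both called), while Adgre1 was at no more than 3 counts. Endothelial markers summed to at most 2.7 CPM. The part of these shifts in the results above was not tested.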

How the data were processed

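Poly-A RNA of 16 samples was sequenced single-end with a stranded kit. Salmon on the Ensembl GRCm38 transcriptome and tximport gave the estimated counts per gene that the authors deposited, not normalized. The submitters' processing notes name Salmon 0.12 and the build GRCh38, whereas the gene identifiers are of mouse. How tximport scaled the counts is not given in the sources used here, and the labels and the methods differ in the read length, of which 75 bases, from the methods, was the length of the longer words compared between copies. Samples were grouped by their labels. GENCODE vM21 (GRCm38) gave symbols and lengths for 32832 genes.

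After rounding of the counts, an approximate TPM was formed with the mean transcript length, and a gene below 1 TPM in more than 3 samples of the comparison was left out (for the interaction, in both lines). The test was limma-voom with TMM (limma 3.58.1, edgeR 4.0.16, R 4.3.3), called at a Benjamini-Hochberg adjusted p below 0.001 over all genes tested. CPM used 1 TMM scale for all samples. With 21715700 to 29450629 counts a sample, 3 counts equal 0.102 to 0.138 CPM, which covers counting error only. Words of 31 bases shared between transcripts of different genes marked near copies (at least 10% of the words). Promoter windows came from RefSeq (GRCm38.p6).

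The members and lists were chosen with earlier results of these data known. All 10 members were to be named, and from each other list every gene called in either line or in the interaction. Alternatives were edgeR's quasi-likelihood test, DESeq2 1.42.0, other scalings and filters, a common fit, sample quality weights, a threshold of 0.05, limma on log2(TPM + 1) and log2(TPM + 0.1), Hspa1a and Hspa1b summed, each sample left out and, chosen after seeing the data, near copies summed. Cct6a, and proteins, were not analysed here.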

Additional observations from a re-analysis of the deposited data

Results flagged for a closer look

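Hsp90ab1 in vehicle treated 67NR sample 13 lay at 5362 CPM, far from the other samples of its group at 3839 to 4066 CPM, with a gap of 0.851 of the whole range, which is above Dixon's critical value for 4 samples. Among the 36 groups of 4 samples examined for 9 members this was the only one, and chance flags about 1 in 20 groups, or 1.8 of these 36.

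The response of Dnaja1 to CIX differed between the lines by -0.77 ± 0.11 on the log2 scale (interaction term of limma-voom, adjusted p = 0.000107). It fell by 1.09 in 4T1 and by 0.32 in 67NR, in 4 of 4 samples below the vehicle samples in each line.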

How the results depend on the processing

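Over 696 values of single members refitted under other settings, 673 kept their direction. The 23 that turned belonged to Hspa8 and Hsph1, and none was called. For Hspa8 in 4T1 (-0.04) they were 0.02 without the filter and with quality weights, 0.03 with near copies summed, and up to 0.08 with a sample left out. In 67NR (0) Hspa8 was at -0.01 by edgeR and DESeq2 and 0 without scaling, and between -0.11 and 0.12 with a sample left out. In the interaction Hspa8 lay between -0.16 and 0.08 with a sample left out, and Hsph1 between -0.11 and 0.23, at -0.25 with quality weights and at -0.01 on both TPM scales.

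The number of members called in 4T1 was 2, and it was 4 by DESeq2 and in a common fit, 5 with quality weights, 6 at a threshold of 0.05 and 1 to 2 with a sample left out. In 67NR it was 1, then 3 at 0.05 and 0 to 1 with a sample left out. In the interaction it was 1, then 2 by DESeq2 and with quality weights and 3 at 0.05. Between the vehicle treated lines it was 3, then 5 by DESeq2, in a common fit and with quality weights, 8 at 0.05 and 2 to 5 with a sample left out. Of all genes, DESeq2 called 26.6% in 4T1, 15.7% in the interaction and 52.1% between the vehicle treated lines. With quality weights these shares were 21.6%, 15.2% and 48.9%. A common fit called 23% in 4T1 and 46.4% between the vehicle treated lines. At 0.05, 42.7%, 17.8%, 29.3% and 67.4% of all genes were called in these 4 comparisons. Other settings stayed within 1.5 times of these counts, and the cause of the shifts was not tested.

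Over all genes, 1084 were called in 4T1 against 3096 by DESeq2, 2688 in a common fit, 2523 with quality weights and 269 to 972 with a sample left out. In 67NR 45 were called against 1041, 151, 247 and 0 to 75, and 27 on the TPM scales. The interaction called 993 against 1981 by DESeq2, 1915 with quality weights and 654 to 1048 with a sample left out, the lowest without 4T1 vehicle sample 7. On log2(TPM + 1) 462 of 1009 calls in 4T1 were higher, against 622 of 1084, and 493 of 1041 in the interaction, against 607 of 993. No paired analysis was made because the labels name no pairs or batches and sample numbers are not shared between groups. With 4 samples a group, the p-values measure the spread between these cultures only.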
